A study of Rattus norvegicus with 21 samples.

Results

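The 6 genes described here, Fads1, Fads2, Elovl5, Elovl2, Elovl1 and Elovl3, encode enzymes that desaturate and lengthen fatty acids. They were picked by gene symbol, and each matched exactly 1 of the 32623 genes in both deposited tables. RNA-seq had been done on 21 rat liver samples, 3 in each of 7 groups. The Wistar table held control and early weaned rats at day 23 and at day 63, and the Sprague Dawley table held control rats, early weaned rats, and early weaned rats given 1.5% leucine in their drinking water, all at day 211. No genotype, allele or agent other than leucine was given for any group, all samples were labelled as liver, and the labels used here give neither sex, nor the day at which pups were weaned early, nor whether the libraries came from separate animals. Strain, the oldest age and the table therefore cannot be told apart, and levels at day 211 were set beside the younger ages as values only.

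Linoleic and alpha-linolenic acid come from the diet and are turned into arachidonic, eicosapentaenoic and docosahexaenoic acid by alternating desaturation and elongation in the endoplasmic reticulum. FADS2 (delta-6 desaturase) takes the entry step, ELOVL5 lengthens its products, FADS1 (delta-5 desaturase) makes arachidonic and eicosapentaenoic acid, and ELOVL2 makes the longer precursors of docosahexaenoic acid. ELOVL1 and ELOVL3 lengthen saturated and monounsaturated chains instead. Liver is a main site of this synthesis, and Fads1, Fads2 and Elovl5 are known targets of SREBP-1c and of PPARalpha. Milk supplies preformed long-chain polyunsaturated fatty acids, so weaning changes how much of them the diet brings.

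Age was the comparison in which members were called. Elovl5 rose and Elovl3 fell between day 23 and day 63 in early weaned rats, and Elovl3 also fell in controls. Of all genes tested, 13.5% were called higher and 13.5% lower in early weaned rats, and 7.97% and 9.61% in controls. Elovl3, at 0 in every day 63 library, passed the filter on low counts only through day 23. No member passed the test for early weaning at any age or for leucine. Fads1 came closest, 1.88-fold higher in early weaned than in control livers at day 211. Levels are given in FPKM, fragments scaled for transcript length and library depth, and differences as edgeR quasi-likelihood estimates from the counts, called at a Benjamini-Hochberg adjusted p below 0.05 over all genes tested. Intervals of a fold are 95% intervals of that model.

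Library depth was even, at 52054644 to 75118153 total counts and 10250 to 11082 genes at an FPKM of at least 1. None of the 8 hepatocyte markers was at 0 in any group. The library of day 23 control replicate 3 stood apart: its mean correlation of log2 CPM was 0.909 with the other day 23 libraries and 0.912 with the day 63 libraries, whereas the other 5 day 23 libraries had 0.946 to 0.947 and 0.871 to 0.886. Results that rest on it are given with and without it. The Y-linked genes Kdm5d and Eif2s3y were at or next to 0 in 3 of the 12 Wistar libraries. These were 2 of the day 23 early weaned and 1 of the day 63 control group. This held in 0 of the 9 Sprague Dawley libraries, so the Wistar groups differed in this respect. The day 63 library, control replicate 2, had 0.34 FPKM of Cyp2c11 and 2368.46 of Cyp2c12, both sex-biased liver genes. The other day 63 livers had 542.36 to 930.63 and 11.96 to 96.56. By these genes control replicate 2 had a female profile, so sex, though not labelled, appeared mixed among day 63 controls. At day 23 Cyp2c11 was at most 0.43 FPKM and could not tell the libraries apart. The Y-linked genes could. In day 23 early weaned replicates 2 and 3 Kdm5d was at 0 FPKM and Eif2s3y at 0 and 0.01. In the other day 23 libraries they were at 2.63 to 3.36 and 9.08 to 10.53. By these genes sex appeared mixed among day 23 early weaned rats too.

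**Figure D1:**
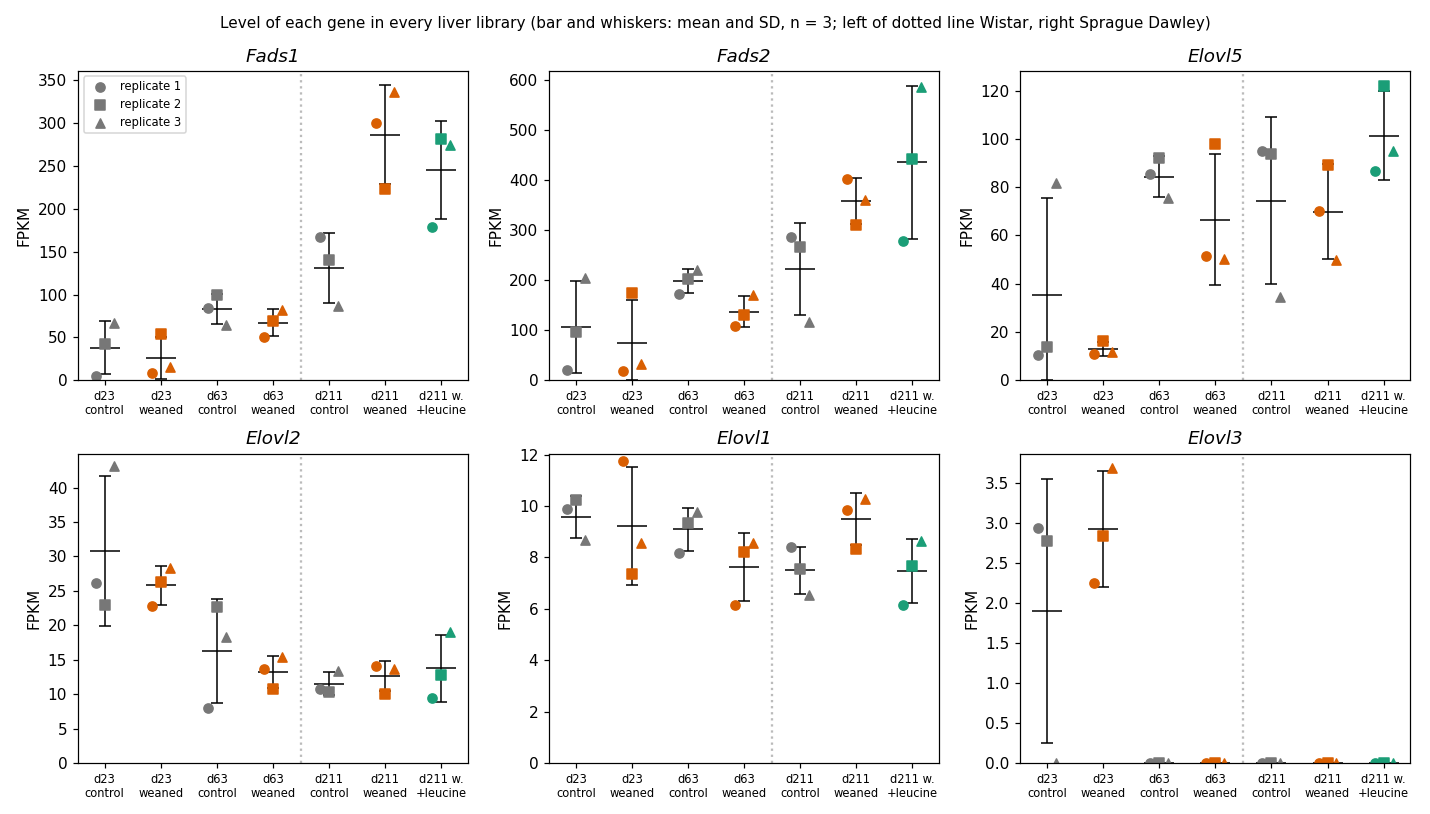
FPKM (y axis) of the 6 genes in every library, by group (x axis), with the mean as a bar and the SD as whiskers (n = 3 libraries) cut at 0 and the replicate number as the symbol. Elovl5 sits at 10.3 to 16.5 in 5 of the 6 day 23 libraries and at 81.9 in day 23 control replicate 3, and Elovl3 is at 0 in every library of day 63 and day 211.

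Elovl5, the elongase of C18 and C20 polyunsaturated acids, lies on chromosome 8 from 85259982 to 85285983 on the plus strand in the coordinates of the deposited tables. In the day 23 controls it stood at 10.3, 13.9 and 81.9 FPKM, and in day 23 early weaned rats at 10.8, 16.5 and 11.8. The day 63 controls had 85.5, 92.2 and 75.5, and the day 63 early weaned rats 51.4, 97.8 and 50.3. Every day 63 library was thus higher than every day 23 library except control replicate 3, which lay within the day 63 range.

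In early weaned rats Elovl5 was 5.54-fold higher at day 63 than at day 23 (interval 1.99 to 15.4, log2 fold change 2.47, SE 0.67, edgeR adjusted p = 0.0227). Of all genes tested, 13.5% were called higher and 13.5% were called lower in this comparison, and the early weaned groups of the 2 ages did not overlap for 52.2% of genes. The call did not hold when any 1 of 4 libraries was left out, with adjusted p of 0.0768, 0.0528 and 0.0663 without day 23 early weaned replicates 1, 2 and 3 and of 0.0772 without day 63 early weaned replicate 2, although the log2 fold change stayed between 2.08 and 2.70 in these 4. A term for the libraries with Y-linked genes at 0 gave an adjusted p of 0.0707, with a log2 fold change of 2.68 (SE 0.88). DESeq2 gave no adjusted p for Elovl5 in this comparison. In controls the difference was 2.40-fold (interval 0.897 to 6.42, adjusted p = 0.188) and did not pass. Without day 23 control replicate 3 it was 2.81 on the log2 scale (SE 0.34, adjusted p = 0.000212), so 1 library decided this result. With all libraries 7.97% of genes were called higher and 9.61% lower, and the groups did not overlap for 32.4%. Leaving out day 23 control replicate 3 raised the genes called from 2710 to 6001.

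The 250 bases before the annotated start of Elovl5 are shown because this gene rose with age, and those of Elovl3 because it fell. Both are from RefSeq, build GRCr8, on the plus strand, 5′ to 3′, at chr8:87670914-87671163 and chr1:254938481-254938730. Capitals mark matches, on either strand, to CACGTG (E-box), CCAAT (reverse ATTGG), TGACGTCA (cAMP response element) and GGGCGG (GC box).
Elovl5: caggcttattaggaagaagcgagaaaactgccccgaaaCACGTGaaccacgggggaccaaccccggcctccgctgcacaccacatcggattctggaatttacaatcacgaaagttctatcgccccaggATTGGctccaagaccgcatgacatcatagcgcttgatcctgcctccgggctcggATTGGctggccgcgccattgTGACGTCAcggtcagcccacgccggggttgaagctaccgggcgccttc
Elovl3: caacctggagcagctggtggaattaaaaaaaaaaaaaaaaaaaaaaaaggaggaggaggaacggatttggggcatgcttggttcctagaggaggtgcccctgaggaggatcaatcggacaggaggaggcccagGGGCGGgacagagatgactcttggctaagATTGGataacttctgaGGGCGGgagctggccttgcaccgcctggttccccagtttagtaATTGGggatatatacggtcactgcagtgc
The Elovl5 stretch holds an E-box that begins 212 bases before the start, CCAAT boxes on the minus strand at 122 and 68, and a cAMP response element at 48. The Elovl3 stretch holds GC boxes at 117 and 72 and CCAAT boxes on the minus strand at 88 and 29. Of 27457 promoters of the same length, 34.3% held CCAAT, 32.4% GGGCGG, 5.79% CACGTG and 1.70% TGACGTCA. Neither the sterol response element SRE-1, held by 0.0838% of promoters, nor the direct repeat DR1, held by 0.0546%, had a match in this window of any of the 6 genes.

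Elovl3, which lengthens saturated and monounsaturated chains and in mouse liver is known for its rhythm over the day and its bias to males, lies on chromosome 1 from 265883355 to 265887226 on the plus strand. Day 23 controls had 2.94, 2.78 and 0 FPKM and day 23 early weaned rats 2.25, 2.84 and 3.69, from 339, 321 and 0 counts and from 289, 375 and 490 counts. It was at 0 in all 6 day 63 libraries and all 9 day 211 libraries. The only day 23 library at 0 was again control replicate 3.

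Against a floor of 3 fragments per library, taken as 12 count units, Elovl3 was at least 29.0-fold higher at day 23 than at day 63 in early weaned rats and at least 21.3-fold higher in controls, or 31.9-fold without control replicate 3. Elovl3 passed the filter on low counts in Wistar rats only through its day 23 libraries. The test of its fall with age thus draws on the values that admitted it, and is given as a description only. Of all genes tested, 13.5% were called lower in early weaned rats and 9.61% in controls. For Elovl3 the edgeR adjusted p for the fall with age was 0.0221 in early weaned rats and 0.0334 in controls. Under the term for Y-linked genes at 0 these were 0.0675 and 0.0643, in the same direction, and limma gave 0.0530 in controls. The call in early weaned rats was also lost without day 23 early weaned replicate 1 or 2 or any day 63 early weaned library (adjusted p of 0.0509 to 0.0584). That in controls was lost without day 23 control replicate 1 or 2, any day 23 early weaned library or any day 63 control library (0.0541 to 0.0945). Elovl3 did not pass the filter on low counts in the Sprague Dawley table, so 6 of 6 members were tested in Wistar and 5 of 6 in Sprague Dawley rats.

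Elovl2, the elongase that leads to docosahexaenoic acid, lies on chromosome 17 from 21382455 to 21422407 on the plus strand and had its highest values at day 23. Control livers held 26.1, 22.9 and 43.2 FPKM at day 23 and 7.95, 22.6 and 18.3 at day 63. Early weaned livers held 22.8, 26.3 and 28.3 at day 23 and 13.6, 10.7 and 15.4 at day 63. In FPKM the ages did not overlap in either arm, though in controls the gap was only that between 22.6 and 22.9. This was so for 32.4% of genes in controls and 52.2% in early weaned rats. In log2 CPM normalised by TMM the controls did overlap. Elovl2 was at 6.45 in day 63 control replicate 2 and at 6.43 in day 23 control replicate 2. The fold was 0.530 in controls (interval 0.312 to 0.902, adjusted p = 0.0888) and 0.559 in early weaned rats (interval 0.329 to 0.950, adjusted p = 0.0929), and neither passed in edgeR. Without day 23 control replicate 3 the log2 difference in controls went from -0.92 to -0.59 (adjusted p = 0.201). DESeq2 gave an adjusted p of 0.0459 in controls, and leaving out day 63 control replicate 1 gave 0.0395 in early weaned rats. With age in controls DESeq2 called 4158 genes, against 2710 in edgeR.

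The desaturases Fads1 and Fads2 lie head to head on chromosome 1, Fads2 from 226114413 to 226152524 on the minus strand and Fads1 from 226234074 to 226249138 on the plus strand, with 81550 bases between their starts. At day 23 both spread widely among livers of 1 group. Fads1 stood at 5.25, 42.0 and 66.6 FPKM in controls and at 8.89, 53.4 and 15.1 in early weaned rats. Fads2 stood at 19.7, 97.0 and 204 in controls and at 17.7, 174 and 31.7 in early weaned rats. Both genes were lowest in replicate 1 of each group, and in each group the library with the most Fads1 also had the most Fads2.

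At day 63 the livers of a group lay closer together. Control livers held 84.8, 99.5 and 64.9 FPKM of Fads1, and early weaned livers 50.7, 69.5 and 81.4. For Fads2, control livers held 172, 203 and 219 FPKM and early weaned livers 109, 130 and 171. Between day 23 and day 63, Fads1 was 2.22-fold (interval 0.670 to 7.34) different in controls and 2.81-fold (0.839 to 9.38) in early weaned rats, and Fads2 1.87-fold (0.519 to 6.74) and 1.96-fold (0.544 to 7.09), with adjusted p from 0.178 to 0.474. In controls the log2 difference went from 1.15 to 1.85 for Fads1 (SE 0.88, edgeR adjusted p = 0.124) and from 0.90 to 1.79 for Fads2 (SE 0.92, adjusted p = 0.152) without day 23 control replicate 3, and to 0.64 and 0.41 without day 23 control replicate 1. In early weaned rats it went from 1.49 to 2.64 for Fads1 (adjusted p = 0.0550) and from 0.97 to 2.62 for Fads2 (adjusted p = 0.0452) without day 23 early weaned replicate 2, one of the libraries with Y-linked genes at 0. Over all genes 2375 were called in that fit with age in early weaned rats.

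Elovl1, the widely expressed elongase of saturated and monounsaturated very long chains, lies on chromosome 5 from 137255908 to 137259949 on the plus strand. It stayed between 6.13 and 11.8 FPKM in all 21 libraries. Its fold with age was 0.952 in controls (interval 0.710 to 1.28) and 0.904 in early weaned rats (0.673 to 1.21), which bounds any age difference more tightly than for the other members.

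Over the ages, therefore, 0 of 6 members were called higher in controls and 1 of 6 in early weaned rats, and 1 of 6 was called lower in each. These counts stand against a background in which 2710 and 4161 of 15416 genes were called. In controls 7.97% were called higher and 9.61% lower, and in early weaned rats 13.5% and 13.5%. With 6 members the counts cannot be told apart from these shares. The member called lower was Elovl3, which passed the filter on low counts only through day 23. The sums of some cell type markers also stood at other levels, while those of others overlapped. The summed FPKM of 8 of 8 hepatocyte markers ran from 56460 to 66749 in early weaned rats at day 23 and from 84225 to 92133 at day 63, without overlap, and 4 of the 8 were called higher and 1 lower. In controls it ran from 75441 to 120833 and from 84622 to 85963, with 1 called higher and 1 lower. The summed FPKM of 8 of 8 stellate cell markers ran from 135 to 195 at day 23 and from 64.3 to 93.1 at day 63, that of 6 of 7 endothelial markers from 71.9 to 92.8 and from 30.5 to 65.8, and that of 7 of 7 lymphocyte markers from 1.26 to 2.88 and from 4.36 to 10.7. None of these markers was at 0 throughout a group. Of the 8 stellate cell markers, 0 were called higher and 3 lower in controls, and 1 higher and 3 lower in early weaned rats. The sums overlapped between the ages for 7 of 7 Kupffer cell markers (192 to 287 FPKM at day 23 and 132 to 340 at day 63). They also overlapped for 6 of 6 cholangiocyte markers (7.64 to 12.8 and 5.93 to 10.6), of which Krt7 was at 0 in day 63 early weaned rats. In bulk liver, fewer cells of a type and less RNA per cell cannot be told apart, and the part of these markers in the age results was not tested.

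The elongases of the pathway stood in another ratio to each other at the later ages. The ratio of Elovl5 to Elovl2, both in FPKM, was 0.395 to 1.90 in day 23 controls and 0.418 to 0.627 in day 23 early weaned rats, with 1.90 in control replicate 3. It was 4.08 to 10.7 in day 63 controls and 3.27 to 9.15 in day 63 early weaned rats, and 2.57 to 9.50 over the 9 livers of day 211. Elovl2 was thus the more abundant transcript per length in 5 of 6 livers at day 23, and Elovl5 in all 15 at the later ages. The exact two-sided permutation p, for the inverse ratio, was 0.1 in each arm, the smallest that 3 against 3 can give, and 0.467 adjusted over 14 tests of ratios that were chosen after their values were seen.

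**Figure D2:**
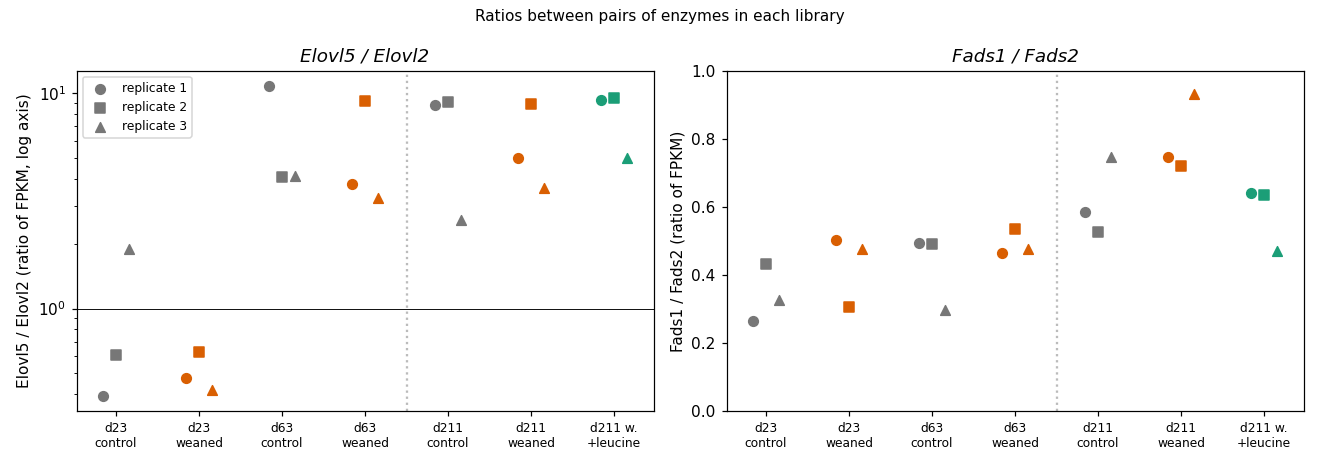
Ratio of Elovl5 to Elovl2 (left, log axis) and of Fads1 to Fads2 (right), each from FPKM, in every library (symbols are replicates 1 to 3) by group. The Elovl5 to Elovl2 ratio lies under 1 in 5 of 6 day 23 libraries and over 1 in all others.

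Early weaning was compared with normal rearing first at day 23. Of 15416 genes, 2 were called (0.013%), and 0 of 6 members were. The log2 difference was below 0 for 5 members and above 0 for Elovl3 (0.58, SE 1.30), but the groups overlapped for all 6 members, against 8.3% of genes whose groups did not. Elovl5 had the largest difference, 0.363-fold (interval 0.135 to 0.978, unadjusted p = 0.0459, adjusted p = 0.797). Without control replicate 3 the log2 difference of Elovl5 went from -1.46 to 0.09 (SE 0.31), and those of Fads1, Fads2 and Elovl2 turned from -0.55, -0.51 and -0.28 to 0.15, 0.38 and 0.04. The lower means of these 4 genes at day 23 thus rested on that single library. The early weaned group also held 2 libraries with Y-linked genes at 0 and the control group 0. Early weaning and sex can thus not be fully told apart at day 23.

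At day 63, 0 of 15416 genes and 0 of 6 members were called (0%), with 933 genes at an unadjusted p under 0.05 in edgeR, 94 called by DESeq2 and 0 by limma. Fads2 was the only member whose groups did not overlap in FPKM, with a gap between 171 and 172. This was so for 18.6% of genes. In log2 CPM normalised by TMM, Fads2 did overlap, with 7.99 in early weaned replicate 3 and 7.92 in control replicate 1. Its fold was 0.736 (interval 0.206 to 2.63), and those of Fads1, Elovl5, Elovl2 and Elovl1 were 0.862, 0.838, 0.866 and 0.894, with intervals that all included no change. Elovl3 was at 0 in both groups. The difference between the effects of early weaning at day 63 and at day 23 passed the edgeR test for none of the 5 members with levels at both ages (adjusted p = 1.00), and 0.00649% of genes were called for it.

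At day 211 Fads1 stood higher in every early weaned than in every control liver. Control livers stood at 167, 140 and 86.5 FPKM and early weaned livers at 300.2, 223 and 336. In counts normalised by TMM the fold was 1.88 (interval 1.26 to 2.79, log2 fold change 0.91, SE 0.26). The unadjusted p was 0.00562 and the edgeR adjusted p 0.111, so Fads1 was not called, while DESeq2 called it at an adjusted p of 0.0118. In edgeR 0.719% of genes were called (108), whereas DESeq2 called 1147, and groups did not overlap for 25% of genes.

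Fads2 did not overlap at day 211 either, with 286, 266 and 116 FPKM in controls and 403, 310.3 and 360.1 in early weaned rats. Its fold was 1.38 (interval 0.813 to 2.35, adjusted p = 0.547). Elovl5 was at 95.1, 93.6 and 34.4 in controls and 70.3, 89.3 and 49.9 in early weaned rats, 0.819-fold (interval 0.459 to 1.46). Elovl2 was at 10.8, 10.3 and 13.4 against 14.1, 10.1 and 13.7, 0.943-fold (interval 0.653 to 1.36), and on log2(FPKM + 1) in limma the differences of Elovl5 and Elovl2 were above 0 (0.0088 and 0.12). Control replicate 3 had the lowest Fads1, Fads2 and Elovl5 of its group. Cholangiocyte markers (6 of 6, none at 0) summed to 8.26 to 13.5 FPKM in controls and 16.1 to 30.6 in early weaned rats, and their part in the desaturase values was not tested.

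Leucine was compared with no leucine within the early weaned rats. With leucine, Fads1 stood at 179, 282 and 275 FPKM, Fads2 at 279, 443 and 585, Elovl5 at 86.6, 122 and 95.1, Elovl2 at 9.38, 12.8 and 19.0, and Elovl1 at 6.17, 7.66 and 8.63. In FPKM all 5 overlapped the early weaned group without leucine, against 22.9% of genes whose groups did not. In log2 CPM normalised by TMM, Elovl5 did not overlap, by the gap between 6.65 in early weaned replicate 2 and 6.66 in leucine replicate 1. Of the 5 members, 0 were called, against 0.36% of genes. The fold was 0.961 for Fads1 (interval 0.648 to 1.42), 1.36 for Fads2 (0.803 to 2.32), 1.60 for Elovl5 (0.893 to 2.85), 1.22 for Elovl2 (0.845 to 1.76) and 0.884 for Elovl1 (0.691 to 1.13), with adjusted p from 0.511 to 0.966.

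Against the day 211 controls, the fold in early weaned rats with leucine was 1.80 for Fads1 (interval 1.21 to 2.68, unadjusted p = 0.00808, edgeR adjusted p = 0.369) and 1.89 for Fads2 (interval 1.11 to 3.22, unadjusted p = 0.0245, adjusted p = 0.422). Neither was called, and 0.0133% of genes were. Fads1 was the only member without overlap, which held for 16.3% of genes. The comparisons of both early weaned groups share the same 3 control livers. The ratio of Fads1 to Fads2 was 0.719 to 0.933 in early weaned rats, 0.469 to 0.642 with leucine and 0.526 to 0.748 in controls. The first 2 ranges did not overlap (exact two-sided permutation p = 0.1, the smallest possible, 0.467 adjusted over the 14 ratio tests).

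**Figure D3:**
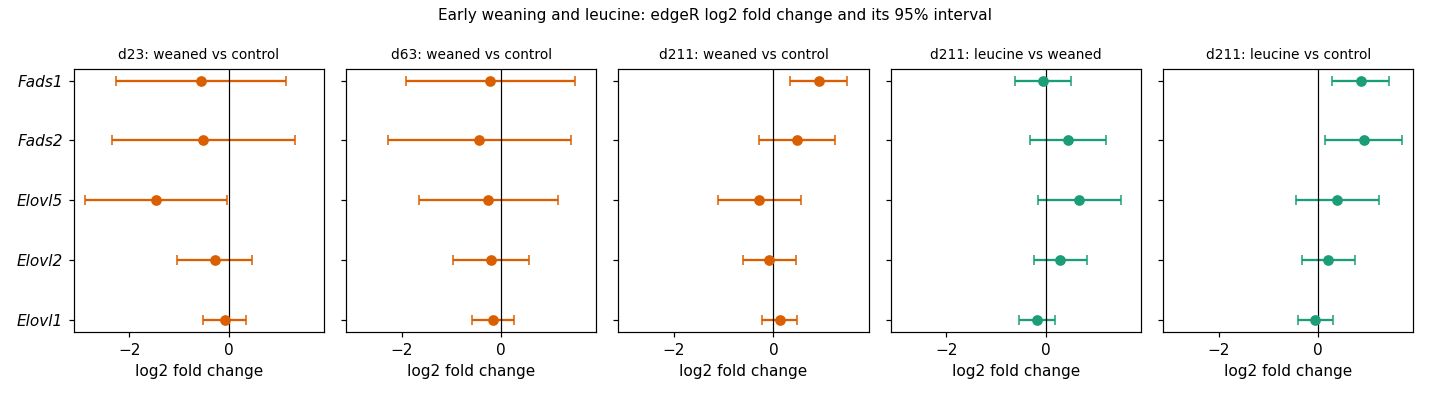
Log2 fold change (x axis) with its 95% interval from edgeR for 5 genes (y axis) in each comparison of early weaning (orange) and leucine (green). At day 211 the interval of Fads1 lies above 0 against controls with and without leucine (0.91 and 0.85), though no adjusted p passed.

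Ordered by group mean, Fads1 in Wistar rats went from 25.8 ± 24.1 FPKM (SD, n = 3) in day 23 early weaned rats through 38.0 ± 30.9 in day 23 controls and 67.2 ± 15.5 in day 63 early weaned rats to 83.1 ± 17.4 in day 63 controls, and each neighbour in this order overlapped the next. In Sprague Dawley rats it went from 131 ± 40.9 in controls through 245 ± 57.5 with leucine to 286 ± 57.7 in early weaned rats, where only the step from controls had no overlap. Fads2 had the same order in Wistar rats and stood at 222 ± 92.9, 358 ± 46.3 and 436 ± 153 in controls, early weaned rats and early weaned rats with leucine at day 211.

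The enzymes that work with the members were read from lists. With age, 7.97% of all genes were called higher and 9.61% lower in controls, and 13.5% and 13.5% in early weaned rats. The counts called per list below were not tested against these shares. The fatty acyl elongation cycle needs a ketoreductase, dehydratases and an enoyl reductase, and 0 of these 6 partners were called in any of the comparisons. The partners of smallest p were Hacd2 (log2 fold change 0.61, adjusted p = 0.116) and Tecr (0.40, adjusted p = 0.427) with age in controls and Hacd1 (-1.28, adjusted p = 0.128) and Hacd3 (-0.36, adjusted p = 0.247) for early weaning at day 211. Desaturation needs electrons from cytochrome b5, and of 4 genes for this supply Cyb5a and Cyb5r3 rose with age in controls (log2 fold changes 0.55 and 0.78, adjusted p = 0.0310 and 0.0236) and in early weaned rats (0.58 and 0.91, adjusted p = 0.0186 and 0.00928). Peroxisomes shorten the last intermediate to docosahexaenoic acid. Of 9 such genes tested with age in controls, 1 rose and 3 fell, among them Abcd2 and Acot8, which fell by 3.52 and 0.86 on the log2 scale. In early weaned rats 2 rose, among them Scp2 (1.09), and 1 fell, Abcd2 (-5.05).

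Of 8 other elongase and desaturase genes tested in Wistar rats, 0 were called with age in controls and 2 fell in early weaned rats: Scd2, a stearoyl-CoA desaturase gene, fell by 1.19, and Elovl6, which lengthens palmitate, went from 0.657 ± 0.197 FPKM at day 23 to 0 at day 63. Over all genes 9.61% were called lower with age in controls and 13.5% in early weaned rats. Elovl6 had a mean under 1 FPKM at both ages. Among early weaned livers only day 23 could carry it past the filter on low counts. Its call is thus a description only. At day 211 those of smallest p for early weaning were Fads3 (log2 fold change 0.93, adjusted p = 0.135) and Scd (4.45, adjusted p = 0.166). Scd, the main stearoyl-CoA desaturase gene of liver, stood at 6.0 ± 9.11 FPKM in controls and 150 ± 132 in early weaned rats.

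Of 10 acyl-CoA synthetase and acyltransferase genes, Lpcat3, which places polyunsaturated chains in phosphatidylcholine, was the 1 called with age in controls (0.57, adjusted p = 0.0250). In early weaned rats it rose too (0.64), as did Acsl1 (1.90), while Acsl4, known for its preference for arachidonic acid, fell by 1.32 and Lpcat1 by 0.95. At day 211 early weaned rats had more Acsl3 (log2 fold change 1.29, adjusted p = 0.0444). This was the 1 call in these lists outside the age comparisons, other than among clock genes. Of 15 tested clock genes 1 rose and 3 fell there, and 3 rose with leucine against early weaned rats. Over all genes 0.719% and 0.36% were called in these 2 comparisons. With age, of 14 clock genes tested, 2 rose and 3 fell in controls, and 4 rose and 3 fell in early weaned rats. Beside these and the acyl-CoA genes above, 7.97% of all genes were called higher and 9.61% lower with age in controls. In early weaned rats these shares were 13.5% and 13.5%.

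Among 9 tested regulators, Srebf1, which encodes SREBP-1c, rose with age in controls from 6.90 ± 1.71 to 18.2 ± 8.79 FPKM (adjusted p = 0.0319) and in early weaned rats from 9.20 ± 2.22 to 38.4 ± 11.6 (adjusted p = 0.00514). Nr1h3, the gene of LXRalpha, rose in early weaned rats from 30.1 ± 6.29 to 81.2 ± 4.50 (adjusted p = 0.00932). In controls Nr1h3 was at 27.0, 27.6 and 71.8 at day 23, the last in replicate 3, and at 72.4 to 78.5 at day 63 (adjusted p = 0.0936). Hnf4a and Rxra rose (0.90 and 0.87) and Insig2 fell (-0.89) in controls. In early weaned rats Hnf4a rose by 0.75, Insig2 fell by 1.57 and Insig1, a brake on SREBP processing, fell by 4.15. Ppara was not called with age, early weaning or leucine. At day 211 Srebf1 stood at 54.3 ± 36.1 in controls, 53.4 ± 14.7 in early weaned rats and 106 ± 50.1 with leucine, and none of the differences was called. Of the 8 SREBP-1c target genes, 1 was called higher with age in controls, and in early weaned rats 2 were called higher, among them Thrsp, while Elovl6 fell as above. Over all genes 7.97% were called higher and 9.61% lower with age in controls, and 13.5% and 13.5% in early weaned rats. Among the SREBP-1c targets 0 were called for early weaning or leucine at any age, with a median log2 fold change of 1.45 in early weaned against control rats at day 211, beside 0.02 over all genes tested.

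The genes whose log2 CPM followed each member most closely in both tables were taken by the smaller of the correlations over the 12 Wistar and 9 Sprague Dawley livers, among 14630 genes. For Elovl5 this was Lrp5 (0.973), then Galnt1 (0.900). For Fads1 it was Tcaf2 (0.862) and, among the next, Dbi (0.844), which encodes the acyl-CoA binding protein. Fads2 went with Tecr (0.858), the enoyl reductase of the elongation cycle, after an unnamed gene, and Elovl2 with Cpe (0.715). Elovl1 had no neighbour above 0.670. These points share libraries and, in the Wistar table, the split by age, so they are a description only.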

How the data were processed

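RNA from 21 rat liver samples was sequenced, after extraction with a column kit and a template-switching mRNA library kit per the labels' protocols. The authors deposited 1 table per strain, each with an FPKM value and an estimated count per gene and library, per the file headers. The FPKM values were normalised by the authors for length and depth. The deposited counts are whole numbers that pile up at multiples of 4, so a fragment was taken as 4 count units, and values of 0 were read against a floor of 12 that covers counting error only. No source used here names the aligner or counter. GRCm38 and mm10, mouse builds, are named in the submitters' processing notes, whereas the tables hold rat identifiers and rat coordinates of a build that is not named.

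Each table was fitted alone with edgeR 4.0.16 (R 4.3.3): a mean per group, TMM, filterByExpr at a minimum count of 10, quasi-likelihood F tests (two-sided) with Benjamini-Hochberg adjustment over 15416 and 15019 genes. The SE of a log2 fold change is its size over the square root of F, and intervals use the t quantile of the same model. The biological coefficient of variation was 0.404 and 0.379. Alternatives were RLE size factors, DESeq2 1.42.0, no filter, a replicate block, limma 3.58.1 on log2(FPKM + 1) and each library left out. Counts divided by 4 and a term for libraries with Y-linked genes at 0 were chosen after seeing the data. Ratios were tested with exact permutation tests. The named genes were all 6 members, up to 3 genes nearest in correlation to each, the listed pathway genes that were called, and Srebf1, Nr1h3 and Ppara. Where no gene of a list was called, the rule takes the 2 of smallest p; these are given for selected comparisons only, and some are not reported here. The members and lists were chosen with earlier results of these data known. Whether libraries came from separate animals is not labelled, so a p-value reflects only the spread among libraries, which may be technical. Same-numbered libraries showed little joint deviation over all genes (correlations from -0.108 to 0.127), so the numbers were not used as pairs. Such values over all genes cannot exclude pairing that acts on single genes.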

Additional observations from a re-analysis of the deposited data

Results flagged for a closer look

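Fads2 in early weaned rats stood on opposite sides of its controls at day 63 and at day 211. At day 63, in Wistar rats, all 3 early weaned livers lay below all 3 controls in FPKM, with a log2 fold change of -0.44. The gap there was that between 171 and 172 FPKM, and in log2 CPM normalised by TMM the groups overlapped. With the term for Y-linked genes at 0 the log2 fold change at day 63 was -0.11 (SE 0.84). At day 211, in Sprague Dawley rats, all 3 lay above, with 0.47. Of the controls there, replicate 3 was at 116 FPKM and the others at 286 and 266. On leaving out 1 library the log2 fold change at day 211 ran from 0.16 to 0.66. Groups did not overlap in FPKM for 18.6% of genes at day 63 and for 25% at day 211. The difference between these effects was not tested, since the ages belong to different strains and tables, and neither effect passed the test on its own.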

How the results depend on the processing

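Among 12 Wistar and 9 Sprague Dawley leave-one-out fits, genes called over all genes ran from 1 to 6 for early weaning at d23, 0 to 3 at d63, 646 to 6001 for age in controls, 1923 to 5908 for age in early weaned rats, 0 to 4 for the difference between ages, 2 to 534 at d211, 1 to 539 for leucine against early weaned and 2 to 6 for leucine against control. Members called ran from 0 to 2 with age in controls and 0 to 3 in early weaned rats. In the same order of comparisons DESeq2 called 113, 94, 4158, 5404, 46, 1147, 791 and 209 genes, with 2, 1 and 1 members with age in controls, with age in early weaned rats and at d211. In the Wistar comparisons DESeq2 gave no adjusted p for Elovl5, which could thus not be called there. Without a filter 5, 113 and 5 were called (d23, leucine against early weaned, leucine against control), with limma 9, 2, 182, 98 and 5 (d23, difference between ages, d211 and both leucine comparisons) and 0 members with age in controls, with counts divided by 4, 188 and 154 (d211, leucine against early weaned), and with the term for Y-linked genes 0, 1, 1559 and 1791 (d23, d63, age) and 0 members with age. The replicate block, whose numbers were not shown to pair samples, called 1 gene at d23 and 0 for the difference between ages. It called 49 at d211 and 5 for leucine against control. With age it called 0 members in controls and 1 in early weaned rats, where Elovl3 had edgeR adjusted p of 0.0826 and 0.0505.

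Signs turned under the term for Y-linked genes for Elovl1 at d23 (0.0636) and with age in controls (0.0199) and for Fads1 (0.15) and Elovl2 (0.0145) at d63, and under limma at d211 for Elovl5 (0.0088) and Elovl2 (0.12), where the median over all genes was 0.13 in limma and 0.02 in edgeR. On leaving out 1 library, log2 fold changes that changed sign at d23 ran from -1.70 to 0.15 for Fads1, -2.16 to 0.38 for Fads2, -1.89 to 0.0904 for Elovl5, -0.47 to 0.0427 for Elovl2, -0.29 to 0.0396 for Elovl1 and -0.0018 to 1.07 for Elovl3. For Elovl2 they ran from -0.53 to 0.11 at d63, -0.15 to 0.0355 at d211, -0.0279 to 0.50 for leucine against early weaned and -0.11 to 0.41 for leucine against control. Elovl1 ran from -0.27 to 0.0644 with age in early weaned rats and -0.18 to 0.0637 for leucine against control, and Fads1 from -0.17 to 0.12 for leucine against early weaned. For the difference between ages the ranges were -0.36 to 1.49 for Fads1, -0.82 to 1.71 for Fads2, -0.35 to 1.64 for Elovl5, -0.25 to 0.39 for Elovl2 and -0.20 to 0.13 for Elovl1. Of all values of single members, 692 kept direction and side of the threshold, 36 changed sign, 5 gained and 23 lost a call. Elovl5 with age in early weaned rats under DESeq2, without an adjusted p, is in none of these counts. The cause was not tested. With 3 libraries a group, single libraries decide several of these values, among them the d23 differences of Fads1, Fads2, Elovl5 and Elovl2, which turned without d23 control replicate 3.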

Other observations

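The other 4 members differed in the motifs of the 250 bases before their start. Elovl2 held 7 GC boxes (GGGCGG on either strand), the most of the 6 genes, and no other motif searched. Fads1 held 1 GC box and 1 CCAAT box, Fads2 1 GC box, and Elovl1 none of the 6 motifs. These matches are counts of letters in a RefSeq window of build GRCr8 and were set against no measured binding.

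The cell cycle gene Cdc20, chosen after its values were seen, was at 9.29 FPKM in day 23 control replicate 3, the library that stood apart, and at 0.18 to 0.30 in the other 5 livers of that age.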
